A study of Mus musculus with 2 samples.

Results

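REV-ERBα binding at the genes that define the T helper 1 (Th1) and T helper 2 (Th2) lineages was examined in mouse T helper 17 (Th17) cells. Peaks of a chromatin immunoprecipitation sequencing (ChIP-seq) experiment were taken where their midpoint lay in 1 of 4 windows of the mm9 genome. The windows were set around Tbx21 (chromosome 11, 96930000 to 97000000), Ifng (chromosome 10, 117830000 to 117930000), Gata3 (chromosome 2, 9740000 to 9840000) and the linked genes Il4, Il13, Rad50 and Il5 (chromosome 11, 53400000 to 53560000). They held 8 of the 8884 listed peaks. Of these, 6 lay in the Il4/Il13/Rad50/Il5 window and 2 in the Tbx21 window, and the Ifng and Gata3 windows held none.

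The cells were wild-type Th17 cells grown in primary culture, and the labels give neither the mouse strain nor the number, age or sex of the animals. The series holds 1 sample precipitated with an antibody to REV-ERBα and 1 input DNA sample from the same kind of cells. Only the peak list of the first was used, so input enters through the value listed for each peak, and no value below has a replicate. The ChIP library had 6390234 tags (aligned reads), and intervals are 95% and cover counting error only. RNA was not measured, so the identity of the cells could not be checked against marker genes.

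REV-ERBα belongs to the nuclear receptors and is part of the circadian clock; it represses genes by recruiting the NCoR corepressor and its histone deacetylase. It binds the half-site AGGTCA next to an A/T-rich stretch, an element it shares with RORγt, the factor that defines Th17 cells. Tbx21 encodes T-bet, the master regulator of Th1 cells, and Ifng encodes interferon-γ, their signature cytokine. Gata3 encodes the master regulator of Th2 cells. Il4, Il13 and Il5 encode the Th2 cytokines, and they share a locus with Rad50, a DNA repair gene whose body contains the Th2 locus control region. Th17 cells usually express these cytokines less than the lineages they mark.

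The half-site was searched as AGGTCA and as TAGGTCA, on both strands, in RefSeq promoter sequences of another build, GRCm38.p6. These run from just upstream of a gene's start to just inside it, and 7 of them belong to 6 of the 7 genes; Rad50 had no entry. AGGTCA occurred in 1 of the 7 promoters, that of Ifng, and in 16.3% of all 32851 promoters. The longer TAGGTCA, which contains the first, was at the same place in Ifng, and occurred in 2.61% of all promoters. The A/T-rich part of the element was not searched for. The Ifng stretch is shown because it was the one match among the lineage genes. It lies just after the annotated start of the gene, at chr10:118441050-118441079 of GRCm38.p6, and is printed on the minus strand, opposite to the gene, with the match in capitals.

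Ifng: tgtgtcttctcTAGGTCAgccgatggcagc

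The build differs from that of the peaks, so the match was not placed against them. No peak was listed in the Ifng window. A match of these letters is a description of the sequence and not a binding site.

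Of the 4 windows, that of Il4/Il13/Rad50/Il5 held most of the peaks and of their tags, 164 tags in 6 peaks (95% Poisson interval 140 to 191). In the RefSeq gene order of GRCm38.p6, Kif3a, a kinesin motor gene, precedes Il4, and Il13, Rad50 and Il5 follow in that order. Irf1, an interferon regulatory factor, comes after Il5. The peaks are given by position, because no mm9 gene annotation was used here, and whether a peak lies in an exon, an intron, a promoter or the locus control region was not determined. They fell into 3 places, namely a strong single peak near the lower edge of the window, a tight run of 4 peaks near its middle, and a weak single peak near its upper edge.

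The strongest peak of all the windows lay at 53406058 to 53406364. It held 50 ChIP tags (interval 37.1 to 65.9) against 3.8 scaled input tags. Its score from the peak caller, which considered at most 1 tag per bp, was 39. With itself included, 31 peaks of the list had at least as many tags, and on chromosome 11 this peak ranked 5 of 697. Its enrichment over input was 13.2-fold (interval 4.85 to 50.4, from 4 input tags), a less extreme value, since 62.6% of the list had a lower fold. The peak stood alone: the next listed peak was 58.4 kb above it and the one before it 245 kb below. The nearer distance was ordinary, as 52.8% of all distances between neighbouring peaks were no longer. The 50-tag peak lay 6.21 kb inside the lower edge of the window, on the side where the RefSeq order has Kif3a before Il4. Whether it lies at Kif3a, which is not a lineage gene of the window, or at Il4 was not determined here.

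The run of 4 peaks spanned 6.82 kb between its outer midpoints and held 102 tags (interval 83.2 to 124). Its first peak, at 53464437 to 53464743, had 32 tags (21.9 to 45.2), 1.9 scaled input tags and a score of 29. The second, at 53468657 to 53468963, had 22 tags (13.8 to 33.3), 1.9 scaled input tags and a score of 22. The third, at 53470367 to 53470673, had 28 tags (18.6 to 40.5), 2.8 scaled input tags and a score of 26.

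The fourth peak of the run, at 53471256 to 53471562, had 20 tags (12.2 to 30.9), 3.8 scaled input tags and a score of 16. The intervals of the 4 tag counts overlapped, so the order of strength inside the run was not resolved. By tags these peaks exceeded 95.1%, 79.8%, 91.0% and 73.6% of the list, in order of position. They lay 4220, 1710 and 889 bp apart. The caller allowed no distance under 612 bp, and the last of these gaps was among the shortest 1.02% in the list.

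Enrichment over input varied along the run, from 16.9-fold at its first peak to 5.29-fold at its last. The intervals, 4.32 to 146 and 1.77 to 21.3, overlap widely, because they rest on 2 and 4 input tags. The peaks between them were 11.6-fold and 9.87-fold over input, near the list median of 10.6.

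**Figure D1:**
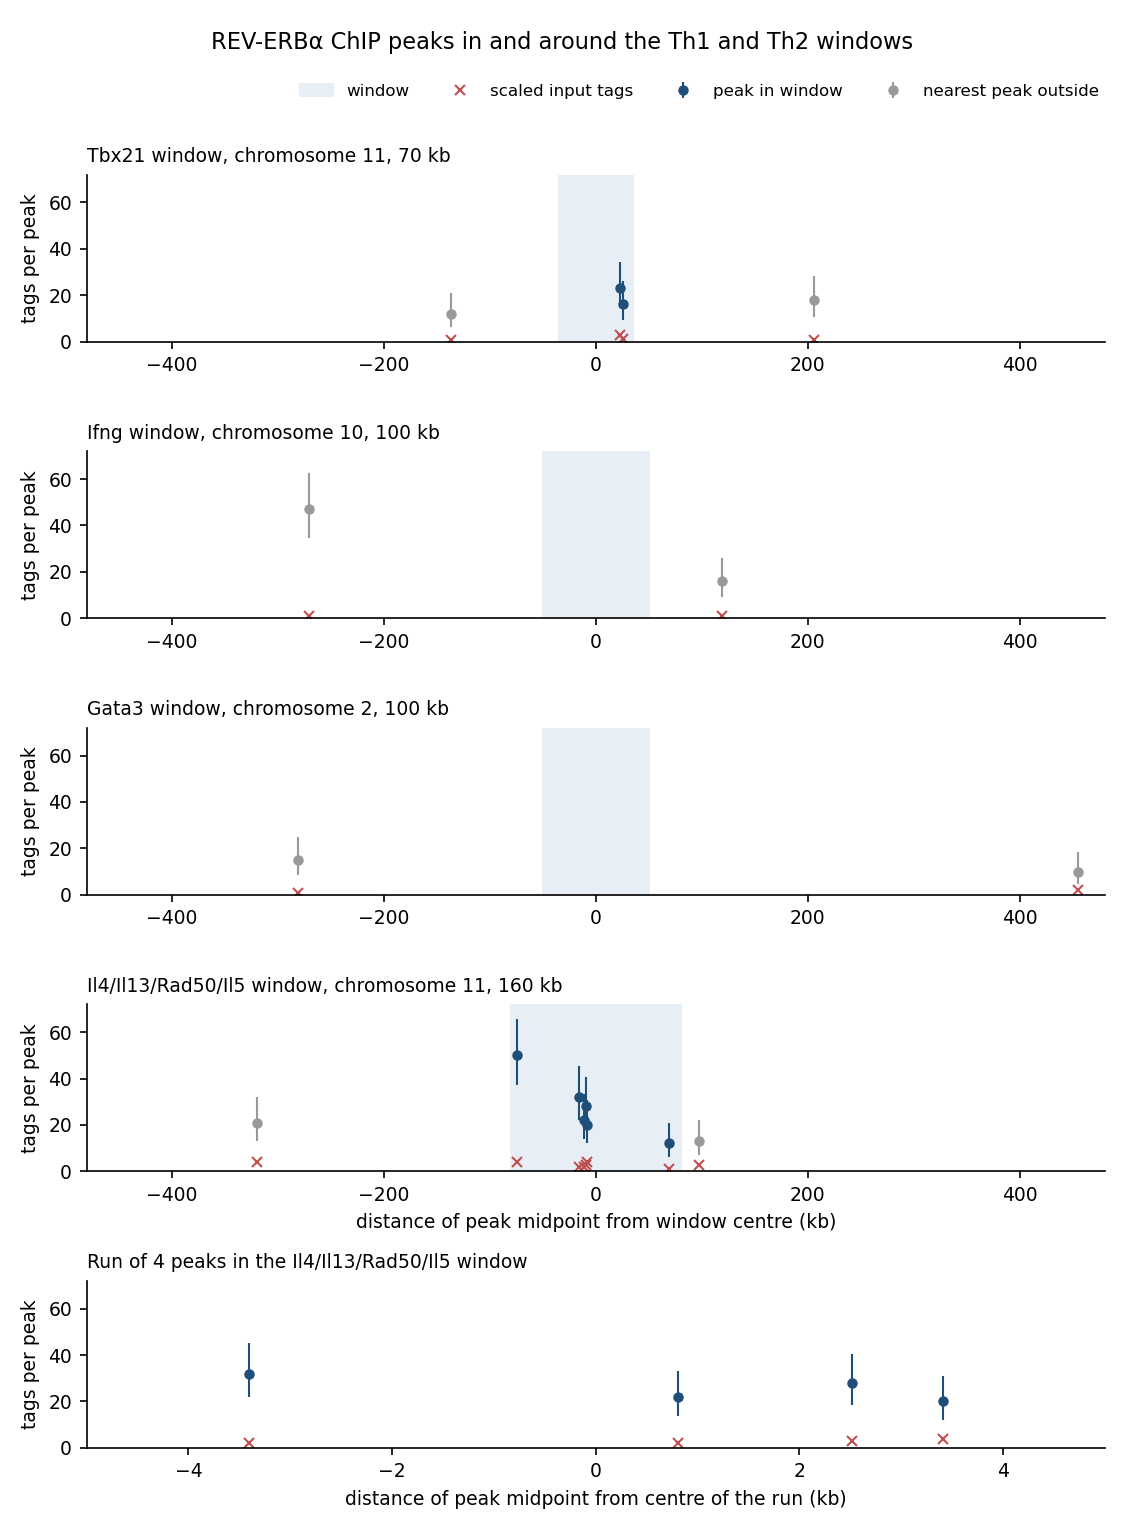
Total ChIP tags per peak (circles, with exact 95% Poisson intervals) and scaled input tags (crosses) against the distance of the peak midpoint from the window centre in kb, with the run of 4 peaks enlarged at the bottom. Shading marks each window and grey circles the nearest listed peak on each side. The Ifng and Gata3 windows are empty, and the 6 peaks of the Il4/Il13/Rad50/Il5 window range from 12 to 50 tags.

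Such a run was uncommon in the list. When peaks with midpoints at most 10 kb apart were joined, 60 runs had at least 4 peaks and together held 2.86% of all peaks. Among the 49 runs of exactly 4 peaks, the one in the cytokine window was the second shortest; the median span was 15.1 kb. It was also the fifth by tags, with 102 against a median of 78. The single shorter run, on chromosome 12, held 53 tags. These ranks describe the list and carry no test.

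**Figure D2:**
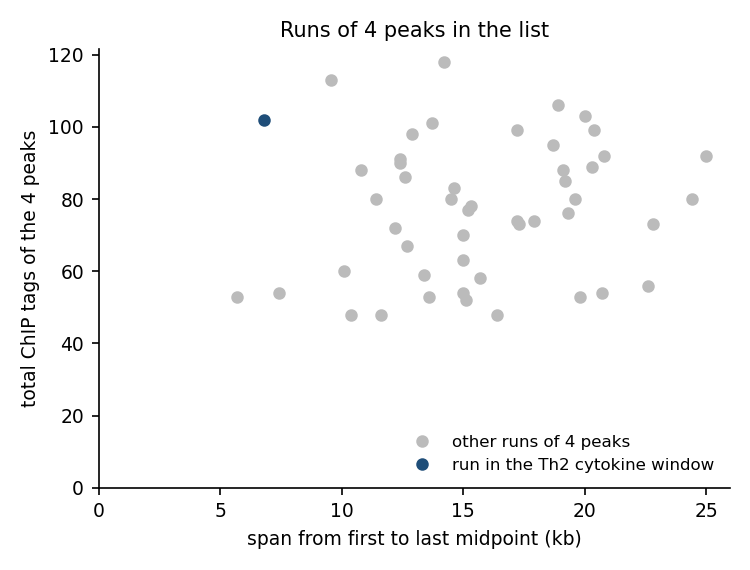
Total ChIP tags against span in kb, from first to last midpoint, for the 49 runs of exactly 4 peaks in the list. The run in the Il4/Il13/Rad50/Il5 window (dark) has 102 tags within 6.82 kb, and 1 other run is shorter.

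The weakest peak of the windows, at 53549272 to 53549578, lay 10.6 kb inside the upper edge, 78.0 kb above the run. It had 12 tags (6.20 to 21.0), 0.9 scaled input tags, equal to 1 input tag, and a score of 10, where the lowest score in the list was 9. Its enrichment was 12.7-fold with an interval of 1.88 to 543, and 80.2% of listed peaks had at least as many tags. The nearest peak just outside the window, at 53577230 to 53577536, was 17.4 kb beyond the upper edge and similarly weak, with 13 tags, 2.8 scaled input tags and a score of 12. No further peak was listed for 255 kb above it. Below the window the nearest listed peak lay 239 kb from the edge, at 53160823 to 53161129, with 21 tags.

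The window of the Th1 regulator Tbx21 held a pair of peaks 1980 bp apart, both in the part of the window with the highest coordinates. The first, at 96988215 to 96988521, had 23 tags (14.6 to 34.5), 2.8 scaled input tags and a score of 20. The second, at 96990195 to 96990501, had 16 tags (9.15 to 26.0), 0.9 scaled input tags and a score of 13. They lay 58.4 and 60.3 kb from the lower edge of the 70 kb window, and 11.6 and 9.65 kb from its upper edge. In GRCm38.p6, Osbpl7 and Tbkbp1 are the neighbouring protein-coding genes of Tbx21, and to which gene the pair is nearest was not determined here.

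By tags, the first peak of the pair stood above most of the list and the second near its median. They exceeded 82.3% and 54.7% of listed peaks. Their folds over input were 8.11 (interval 2.45 to 42.2) and 16.9 (2.63 to 710). The higher fold belonged to the peak with fewer tags and rests on 1 input tag, so the folds do not rank the peaks. Together the pair held 39 tags (27.7 to 53.3), and 377 of the 1066 runs of exactly 2 peaks held more. Outside the window the nearest peaks were distant, 101 kb below the lower edge (12 tags) and 171 kb above the upper edge (18 tags).

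The 100 kb window of the Th1 cytokine gene Ifng held no listed peak. The nearest peak above it, at 117998698 to 117999004, lay 68.9 kb beyond the edge and had 16 tags (9.15 to 26.0), 0.9 scaled input tags and a score of 14. The nearest peak below it, at 117609504 to 117609810, lay 220 kb from the edge. It was among the strongest on chromosome 10, ranked 3 of 508 by tags, with 47 tags (34.5 to 62.5), 0.9 scaled input tags and a score of 34. Its fold over input was 49.7 with an interval of 8.50 to 2010, from 1 input tag. The stretch between these flanking peaks measured 389 kb, and 12.9% of the 8864 distances between neighbouring peaks were at least as long. Together those distances covered 77.7% of the length between first and last peaks.

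The 100 kb window of the Th2 regulator Gata3 held no listed peak either. Its surroundings were emptier than those of Ifng, with flanking peaks 231 kb below and 405 kb above the edges. The lower one, at 9508905 to 9509211, had 15 tags (8.40 to 24.7) and 0.9 scaled input tags. The upper one, at 10244911 to 10245217, had 10 tags (4.80 to 18.4), 1.9 scaled input tags and a score of 9, the lowest of the list. They were 736 kb apart. Distances at least that long were 8.09% of all distances between neighbours and covered 68.9% of that length.

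An empty window does not show that REV-ERBα was absent. Every listed peak had a score of at least 9, though 55 had fewer than 9 total tags. Putative peaks that passed this threshold and then failed the filters over input (3533) or over the local region (1857) are not in the list, nor are tags that formed no peak, in the Ifng and Gata3 windows or elsewhere. Binding too weak to pass the threshold and the filters would not be listed. Neither the depth needed to detect it nor the share of each window that reads can map to was examined.

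To set the windows against the genome, every chromosome was divided into adjoining tiles of the same width, starting at the first listed peak and ending at the last. Of the 15863 tiles of 160 kb, 1.2% held at least 6 peaks, the number in the Il4/Il13/Rad50/Il5 window. On chromosome 11 alone, the chromosome that carries this window, the share was 2.56%. Of the tiles of 70 kb, 5.75% held at least the 2 peaks of the Tbx21 window, and 9.91% did on chromosome 11. An empty tile was the usual case: 80.7% of the 25387 tiles of 100 kb held no peak, as the Ifng and Gata3 windows did. The shares were 78.3% on chromosome 10 and 75.6% on chromosome 2. So the lack of peaks in the Ifng and Gata3 windows was shared with most tiles of their size. The number in the Il4/Il13/Rad50/Il5 window was reached by few. Tiles were not matched to the windows for gene content or for sequence that reads can map to. Unlike the tiles, the windows were chosen with earlier results of these data known, so these shares are a description and not a test.

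**Figure D3:**
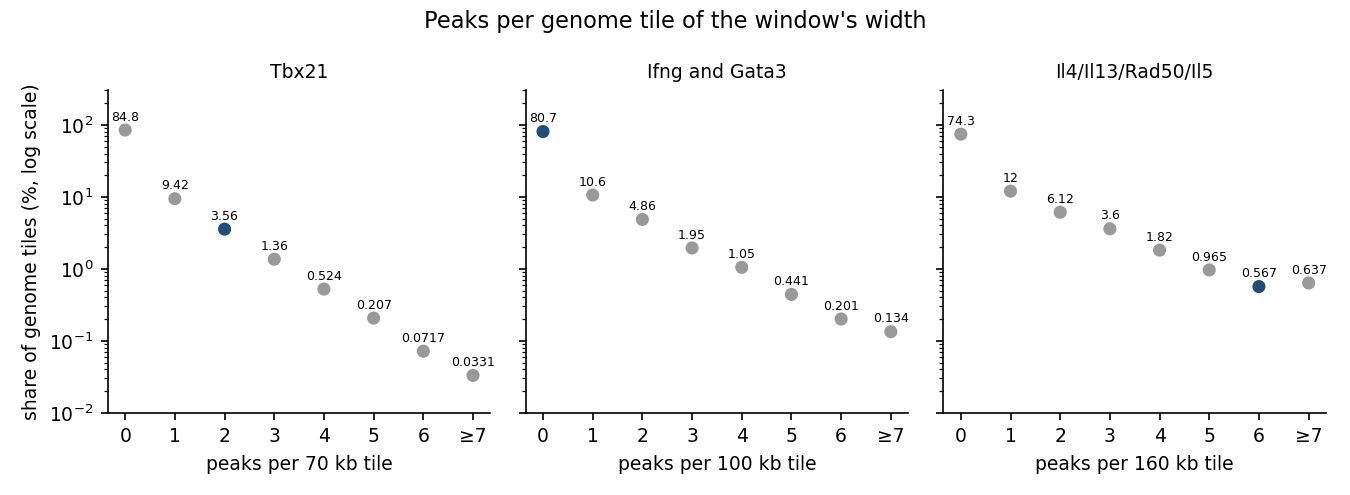
Share of genome tiles (percent, log scale) with 0 to 6 or at least 7 listed peaks, for tiles of 70, 100 and 160 kb. Dark points mark the number in the window of that width: 2 for Tbx21, 0 for Ifng and for Gata3, and 6 for Il4/Il13/Rad50/Il5.

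Taking the 8 peaks as a group, 7 were at or above the list's median of 15 tags, where 51.3% of all peaks were. Their median was 22.5 tags, and the exception was the 12-tag peak of the cytokine window. At least 8-fold enrichment over input was listed for 7 of 8, against 61.5% of all peaks, and the exception was the last peak of the run. Above the list medians were 5 of 8 by fold over input and 3 of 8 by fold over the local region. The median local fold of the 8 was 7.35, against 7.78 in the list. None had an input at the lowest listed value, against 16.8% of all peaks, so each fold of the 8 rests on at least 1 input tag. A neighbour within 10 kb was listed for 6 of 8, against 33.7% of all peaks. Those 6 are the run and the Tbx21 pair, so they represent 2 places and not 6 independent ones.

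**Figure D4:**
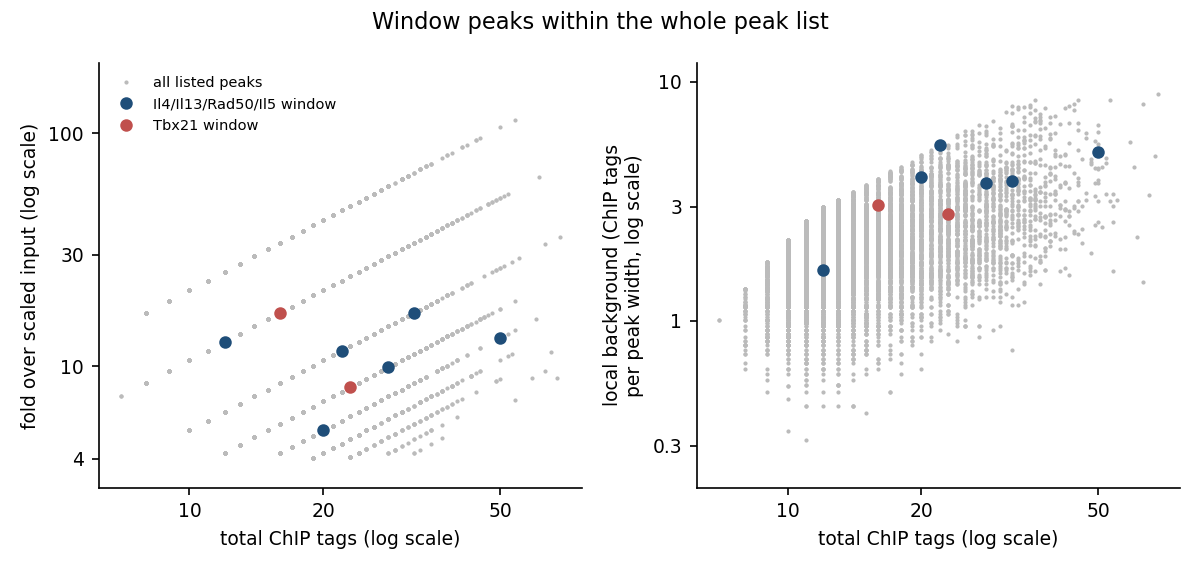
Fold over scaled input (left) and local ChIP background in tags per peak width (right) against total ChIP tags, all on log scales, for listed peaks (grey; 1 peak with over 1000 tags is not drawn) and for the peaks of the Tbx21 (red) and Il4/Il13/Rad50/Il5 (blue) windows. The second peak of the run, with 22 tags, lies at the upper limit of local background that the 4-fold filter sets.

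The ChIP signal in the region around each peak was also compared. The list gives each peak's fold over the 10000 bp around it, and tags over this fold give a local background per peak width of 306 bp. It was 5.46 tags for the second peak of the run, where peaks of 22 tags had a median of 2.43 and 99.5% of those 221 peaks had less. Its fold over the local region, 4.03, was just above the 4-fold that the authors required, and 0.124% of the list had a lower one. At the last peak of the run the background was 4.01 tags, against a median of 2.18 at equal tag count, and the local fold was 4.99.

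The background was 3.06 tags at the second Tbx21 peak, above 87.4% of peaks with 16 tags, and 2.81 at the first, above 65.7% of peaks with 23 tags. It was 5.11 at the isolated 50-tag peak, above 6 of the 10 peaks of that count. In all, 7 of 8 lay above the median of peaks with equal tags, and the 12-tag peak, at 1.64 against 1.74, lay below. By definition, a median leaves about as many listed peaks above it as below. The 7 include the run and the pair, so they are not 7 independent places. Of the 8, 6 had a neighbour within 10 kb, against 33.7% of the list. Neighbouring peaks enter each other's local region in the run and in the pair, and their part in these values was not tested.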

How the data were processed

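The members and windows were chosen with earlier results of these data known. Reads were handled with CASAVA 1.8.2, Bowtie and HOMER on mm9, per the submitters' processing notes, in which Bowtie and HOMER carry no version. Per the file headers, HOMER findPeaks compared the ChIP library with input, with a false discovery rate of 0.001, a tag threshold of 9 (met by every score, not by every total tag count), and 4-fold and a Poisson p-value of 1e-04 over input and over the 10000 bp around the peak. Of 14274 putative peaks, 3533 failed the input filter and 1857 the local filter. The deposited total tags are raw counts. The authors deposited input as a signal at the depth of the ChIP library, the deposited folds are linear ratios, and the score is the caller's, deposited as such.

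Every peak in a window is named, and outside only the nearest on each side. Input tags were recovered as tags over fold, in steps of 0.945; all 7392 values above the lowest lay within a relative 0.02 of whole steps. Tag counts carry exact Poisson 95% intervals and folds exact binomial (Clopper-Pearson) ones. No test was run, since there was 1 ChIP sample. Tiling was tested on simulated peaks and the Poisson interval on simulated counts. The binomial intervals were not tested in this way. The promoter table was RefSeq, GRCm38.p6. Stricter fold and tag filters, other window edges and other tilings were tried. Other Th1 and Th2 genes were not analysed here, as mm9 annotation was not used. Python 3.11.15, numpy 2.4.6, pandas 2.3.3, scipy 1.17.1 and matplotlib 3.10.9 were used.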

Additional observations from a re-analysis of the deposited data

How the results depend on the processing

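The peak numbers of the 4 windows stayed within 1.5 times of the reported ones with peaks of at least 8-fold over input, with peaks at or above the median tags, with any base in the window and with windows widened by 50 kb. Narrowing the windows by 10 kb on each side left 1 of 2 peaks in the Tbx21 window, because the other lies 9.65 kb from the edge. It left 5 of 6 in the Il4/Il13/Rad50/Il5 window. Ifng and Gata3 had no peak under any of these settings. Summed tags of the Tbx21 and cytokine windows were 39 and 144 with the stricter fold, inside their Poisson intervals. Counting any base in the window left the sums at 39 and 164. The summed scores, 33 and 142, also fell inside, but a score is not a tag count, so this does not check the tags. The share of tiles with at least the window's number of peaks changed more. On the window's own chromosome it was 9.91% for Tbx21 and 2.56% for the cytokine genes, and the share of empty tiles was 78.3% for Ifng and 75.6% for Gata3. With peaks of at least 8-fold, counted in the windows too, it was 3.02% for Tbx21 and 0.544% for the cytokine genes, and 85.4% of tiles were empty for Ifng and for Gata3. The cause of the chromosome differences was not tested. Tiles shifted by 0.5 of a width gave like shares. No paired analysis was possible because there was 1 ChIP sample, and for the same reason no replicate could be left out.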
